A study of Mus musculus with 17 samples.

Results

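The genes described here are 34 genes that encode lysosomal enzymes, lysosomal membrane proteins and regulators of the lysosome. A gene was taken where a probe set of the array was annotated to its symbol and to no other, and where several qualified the brightest by its mean on the 17 arrays stood for it. This gave 32 genes of the 17097 measured. Neu1 and Idua had no such probe set in the annotation used here and were not analysed here. The study compared mature myeloid cells with the bone marrow progenitors that give rise to them. It also compared wild-type progenitors with those titled as knockout of the transcription factor IRF8, and progenitors with and without expression of a VENUS reporter. Cells of mice aged 6 to 10 weeks were sorted by flow cytometry, and each sample was a pool on an Affymetrix array with perfect-match probes. Wild-type spleen gave macrophages (CD11c-CD11b+MCSFR+, n = 3 pools) and granulocytes (CD11c-CD11b+Ly6C+MCSFR-, n = 3 pools). The other 4 groups were bone marrow myelo-dendritic progenitors (MDPs), all gated as lineage-sca1-CD127-CD117+MCSFR+ cells. They were wild-type MDPs (n = 3), MDPs titled IRF8_ko_MDP and labelled IRF8-deficient (n = 3, called knockout-labelled here), and MDPs with (n = 3, titled IRF8_PAC_MDP) or without (n = 2, titled IRF8_neg_MDP) VENUS expression. Both VENUS groups also bear the genotype label IRF8-deficient, and the labels leave unsaid whether this refers to the reporter allele. Pools held cells of 5 mice, except that no mouse number is given for the VENUS pools, and neither the strain nor the construct of either allele is given in the sources used here.

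Lysosomes are acidic compartments in which hydrolases break down proteins, lipids, glycans and nucleic acids delivered by endocytosis, phagocytosis and autophagy. Their membrane is lined by glycosylated proteins such as LAMP proteins, which shield it from the enzymes inside, and it holds channels and exporters that release ions and breakdown products. The transcription factor TFEB switches many of these genes on together by binding a short DNA element known as the CLEAR motif. Macrophages are known for a large lysosomal compartment, with which they degrade what they engulf.

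Promoter sequences were searched for short elements, among them the CLEAR motif. RefSeq entries of the mouse build GRCm38.p6 held 30 of the 32 genes (not Npc1 and Asah1). The 250 bases before each start were searched on both strands. Of the 30 genes, Cln3, Ctns, Lgmn, Psap and Tfeb had more than 1 start in the table, and a gene was counted where any of its starts had a match. Cln3 and Lgmn had theirs at 1 of 2 starts. The letters TCACGTG, the core of the CLEAR motif, were in 10 of 30 genes, against 3.58% of all 27025 genes with an entry. Each such match contains the E-box CACGTG, which was in the same 10 genes and in 6.86% of all genes. These shares are no result of the levels measured here, since the CLEAR motif is known as an element of many such genes. The 10 genes were Lamp1, Mcoln1, Cln3, Gla, Glb1, Naglu, Gaa, Sgsh, Lgmn and Ifi30. The ETS-IRF composite element (GGAA, any 2 bases, then GAAA) was in Scarb2 alone, against 2.68% of all genes. Stretches are shown for Lamp1 with its 4 matches, for Cln3 and Gla, whose levels differed in opposite directions in mature cells, for Ifi30 and Lgmn, which were highest in macrophages, and for Scarb2. Capitals mark the matched letters. They read 5′ to 3′ on the strand of the gene, and lie at chr8:13159080-13159160 (plus strand), chr7:126583332-126583405 (minus), chrX:134601174-134601252 (minus), chr8:70766834-70766879 (minus), chr12:102439116-102439161 (minus) and chr5:92505742-92505791 (minus).
Lamp1: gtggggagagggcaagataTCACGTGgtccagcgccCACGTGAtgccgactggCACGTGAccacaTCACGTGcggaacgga
Cln3: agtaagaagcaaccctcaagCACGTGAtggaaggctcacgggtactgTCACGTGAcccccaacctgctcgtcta
Gla: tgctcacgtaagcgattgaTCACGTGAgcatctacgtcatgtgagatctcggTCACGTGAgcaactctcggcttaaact
Ifi30: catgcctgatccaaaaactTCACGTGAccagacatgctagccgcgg
Lgmn: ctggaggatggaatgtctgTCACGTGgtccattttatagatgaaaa
Scarb2: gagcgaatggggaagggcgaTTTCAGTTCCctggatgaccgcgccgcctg

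The 2 genes with the largest differences between VENUS-negative and VENUS-positive MDPs, Scpep1 and Psap, had none of these letters in the 250 bases before any of their starts. The bases before the single start of Scpep1 and before 1 of the 2 starts of Psap are shown, at chr11:88955443-88955692 (minus strand) and chr10:60277378-60277627 (plus strand).
Scpep1: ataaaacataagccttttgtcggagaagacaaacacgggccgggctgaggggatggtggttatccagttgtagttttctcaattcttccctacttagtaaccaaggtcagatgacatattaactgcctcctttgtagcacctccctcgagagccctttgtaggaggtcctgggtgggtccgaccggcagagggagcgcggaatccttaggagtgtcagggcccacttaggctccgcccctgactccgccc
Psap: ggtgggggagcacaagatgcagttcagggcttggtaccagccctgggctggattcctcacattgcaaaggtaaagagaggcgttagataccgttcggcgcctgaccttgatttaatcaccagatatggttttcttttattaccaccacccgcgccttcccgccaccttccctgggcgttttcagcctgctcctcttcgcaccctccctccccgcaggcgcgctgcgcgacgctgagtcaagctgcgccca

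Levels are the authors' log2 values, and 1 log2 unit is 2-fold. A gene was called where the adjusted p of limma was under 0.05, with the adjustment made over all 17097 genes. Levels are compared within a gene only, since probe sets differ in brightness. Where pools are said not to overlap, this describes genes mostly picked by their calls. The share of all genes without overlap was not counted. A fold is given only where the lower group's mean was above the median of all probe sets, 4.38. The labels do not say that pools came from separate sorts, and p-values then cover only the spread seen among these pools. In sorted pools, fewer cells of a type and less RNA per cell cannot be told apart.

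The sort labels were checked against marker genes. Irf8 was at 10.34 in wild-type and 10.31 in knockout-labelled MDPs, so its level did not mark the knockout label. Whether the Irf8 probe set lies within the deleted part of the gene was not tested. It was at 5.49 and 6.25 in the VENUS-negative pools and at 10.72 to 11.10 in the VENUS-positive pools. The VENUS-negative pools also had low Csf1r, the gene of the M-CSF receptor used in the gate (5.09 and 4.83, against 7.63 to 8.05 in VENUS-positive pools). Erythroid and megakaryocyte markers averaged 9.71 and 8.89 in VENUS-negative pools, with 12 of 12 above the median signal, and 5.35 to 5.77 in VENUS-positive pools. Wild-type MDP pool 3 stood apart from the other two wild-type pools, with granulocyte markers at 8.41 against 4.99 and 4.75. In the macrophages, 4 of 11 macrophage markers (Mertk, C1qa, Vcam1 and Marco) had group means under the median signal, and dendritic cell markers averaged at least 8.79 in each pool. The 6 measured dendritic cell markers were uneven there. H2-Aa, H2-Ab1 and Cd74 were at 11.42, 11.94 and 12.23, Itgax at 8.38 and Zbtb46 at 6.17. Xcr1 was at 3.11, under the median signal. The granulocytes had NK cell markers at 6.70 to 7.45.

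**Figure D1:**
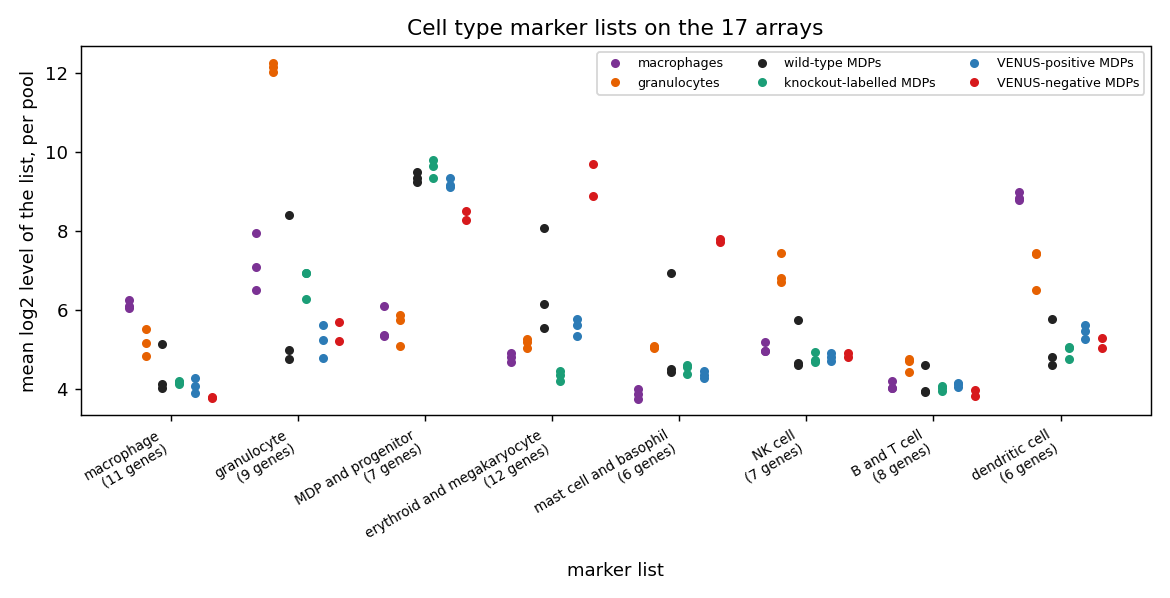
Mean log2 level of 8 marker lists (x axis, with the number of measured genes) for each pool, coloured by group. VENUS-negative pools lie above the other MDP pools for the erythroid and mast cell lists, and wild-type pool 3 lies above its group for the granulocyte, erythroid and mast cell lists.

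Macrophages had the highest group mean for 24 of the 32 lysosomal genes, while 13.1% of all genes were highest there. VENUS-negative MDPs had the lowest group mean for 17 of the 32, against 17.8% of all genes. The mean level over the 32 genes was 8.58 to 8.70 in macrophage pools and 7.54 to 7.72 in granulocyte pools. It was 7.28 to 7.79 in the 9 pools of wild-type, knockout-labelled and VENUS-positive MDPs, and 6.78 and 6.97 in VENUS-negative MDPs. The distance from the highest to the lowest group mean had a median of 1.92 log2 units over the 32 genes and 0.83 over all genes. It was widest for Ifi30 (5.18), Scpep1 (5.02), Cd68 (4.80), Psap (4.28) and Lgmn (3.30). Smpd1, which encodes acid sphingomyelinase, had the narrowest distance at 0.58.

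**Figure D2:**
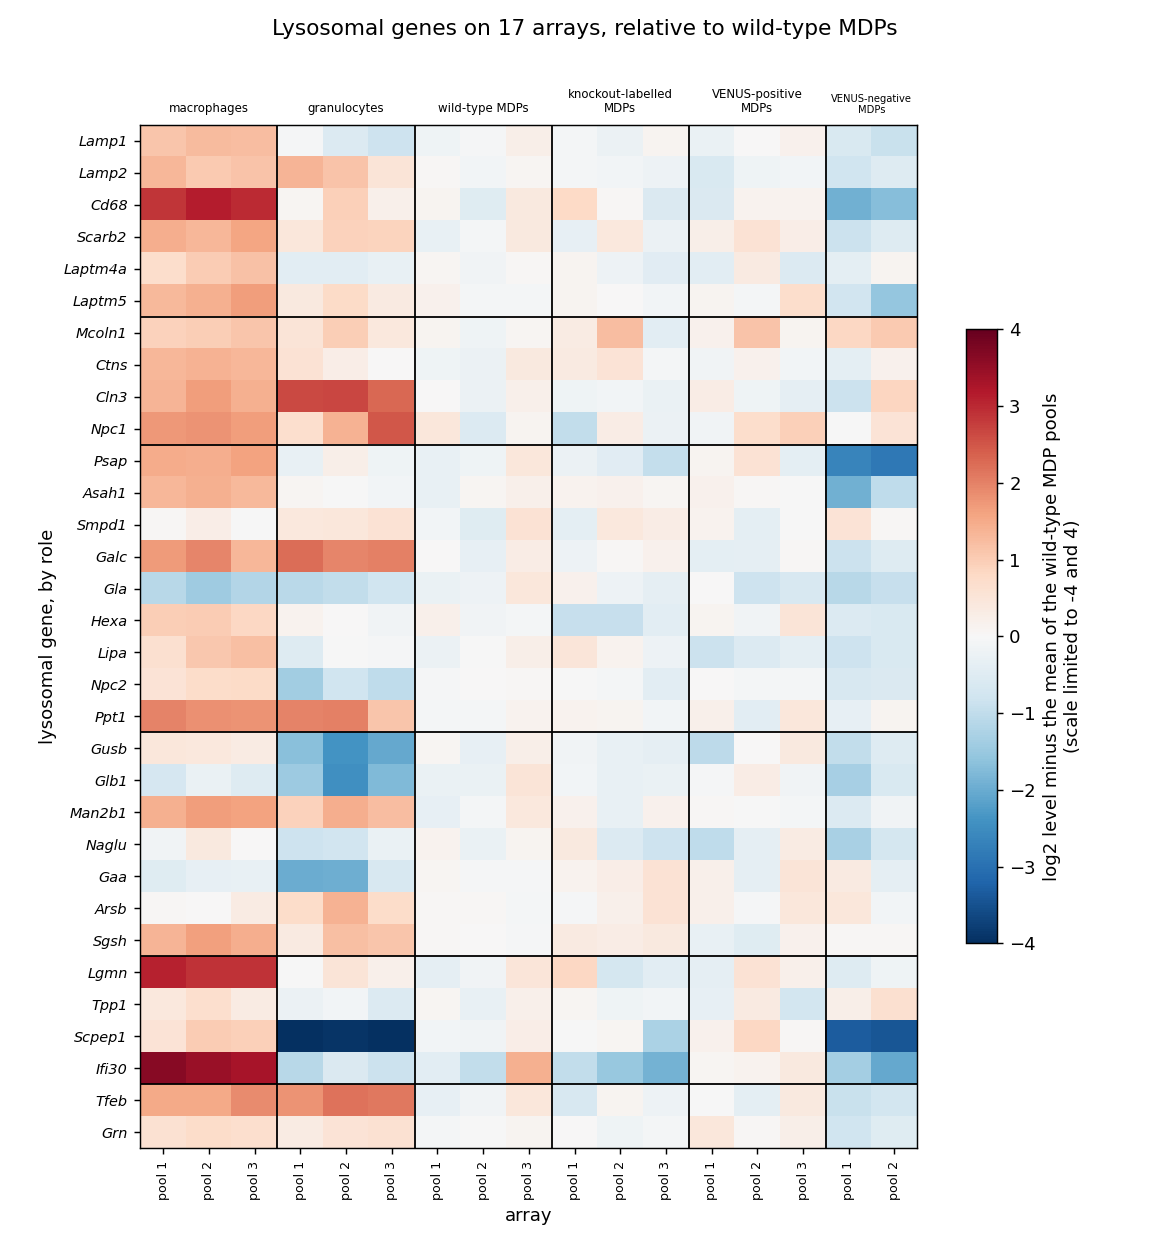
Log2 level of each of the 32 lysosomal genes (rows, grouped by role) on each of the 17 arrays (columns, by group), as the difference from the mean of the wild-type MDP pools; colours are limited at 4 units either way. Macrophage pools are mostly red, and Scpep1 is blue in granulocytes and VENUS-negative MDPs.

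The first comparison asked how the 2 mature spleen populations differ. Lysosomal genes were mostly higher in macrophages than in granulocytes: 19 of 32 rose and 2 fell, where 31.2% of all genes were called (18.4% higher and 12.8% lower). The largest differences were in Scpep1, Ifi30, Lgmn, Cd68 and Gusb. By role, 5 of 6 membrane proteins, 5 of 9 genes of lipid breakdown, 4 of 7 of glycan breakdown and all 4 of the group of proteases and thiol reductase were higher in macrophages. The median difference was 0.85 over the 32 genes and -0.09 over all genes.

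Scpep1 encodes a serine carboxypeptidase of the lysosome. Its levels were 7.93, 8.39 and 8.34 in macrophages and 2.86, 3.44 and 3.31 in granulocytes, a difference of 5.02 (SE 0.31, limma adjusted p = 3.06e-08). All 3 granulocyte pools were under the median signal of the arrays, and all 3 macrophage pools were far above it. Ifi30 encodes the thiol reductase that opens disulfide bonds of antigens before they are presented. It was at 11.79, 11.62 and 11.46 in macrophages and 7.03, 7.57 and 7.30 in granulocytes, a difference of 4.32 (adjusted p = 4.06e-06 by limma). Lgmn, the gene of the asparaginyl endopeptidase legumain, was at 6.48, 6.30 and 6.31 against 3.39, 3.92 and 3.62, a difference of 2.72 (adjusted p = 3.11e-05, limma). For each of these genes the pools of the 2 populations did not overlap. Tpp1, the gene of a tripeptidyl peptidase, differed by 0.77 in the same direction (limma adjusted p = 0.0236), and its call was lost without macrophage pool 1, macrophage pool 2 or granulocyte pool 3.

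Among the membrane proteins, Cd68, a glycoprotein used as a marker of phagocytes, was at 9.88, 10.15 and 10.01 in macrophages and 7.10, 7.97 and 7.20 in granulocytes, 6.02-fold higher (limma adjusted p = 3.49e-05). Every macrophage pool was above every granulocyte pool. Lamp1, Laptm4a, Laptm5 and Scarb2 rose by 1.68, 1.35, 0.95 and 0.69. Lamp2 differed by 0.16 and was not called. Of the channel and exporters, the cystine exporter Ctns rose by 1.05. Cln3, the gene mutated in juvenile Batten disease, went the other way, at 7.27, 7.57 and 7.35 in macrophages and 8.57, 8.59 and 8.20 in granulocytes, where it was 2.08-fold higher (limma adjusted p = 0.0183). All 3 granulocyte pools were above all macrophage pools. The call of Cln3 was lost without macrophage pool 1, macrophage pool 3 or granulocyte pool 2 (limma adjusted p = 0.0609, 0.0535 and 0.0606), and that of Scarb2 without macrophage pool 1, macrophage pool 3 or granulocyte pool 1 (limma adjusted p up to 0.0983). Npc1 and Mcoln1 differed by 0.22 and 0.36 and were not called.

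In lipid breakdown, Npc2, a soluble carrier that hands cholesterol to NPC1, was at 11.72, 11.92 and 11.92 in macrophages and 9.79, 10.37 and 10.15 in granulocytes, 3.37-fold higher (limma adjusted p = 6.07e-07). The saposin precursor Psap, acid ceramidase (Asah1), acid lipase (Lipa) and the hexosaminidase subunit Hexa rose by 1.60, 1.37, 1.16 and 0.94. In glycan breakdown, Gusb, the gene of beta-glucuronidase, was at 8.32, 8.27 and 8.20 against 6.20, 5.47 and 5.80, 5.42-fold higher (limma adjusted p = 2e-05), with no overlap. The galactosidase Glb1, the acid glucosidase Gaa and the heparan sulfate sulfamidase Sgsh rose by 1.41, 1.16 and 0.59. The call for Sgsh was lost without any 1 of 13 of the 17 arrays, and that for Gaa without granulocyte pool 1 or 2 (limma adjusted p = 0.0502 and 0.0609). Arsb, a sulfatase of dermatan sulfate, was lower in macrophages, at 3.62, 3.58 and 3.89 against 4.30, 4.98 and 4.30, a difference of -0.83 close to the median signal (limma adjusted p = 0.00912). The regulator Tfeb and the growth factor gene Grn, which encodes progranulin, differed by -0.37 and 0.19 and were not called. For Grn this depended on the probe set. It was called higher in macrophages with its probe set of largest variance, dimmer than the one used (1.23, limma adjusted p = 0.00475). The mean of its probe sets was called as well (0.71, limma adjusted p = 0.00683).

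**Figure D3:**
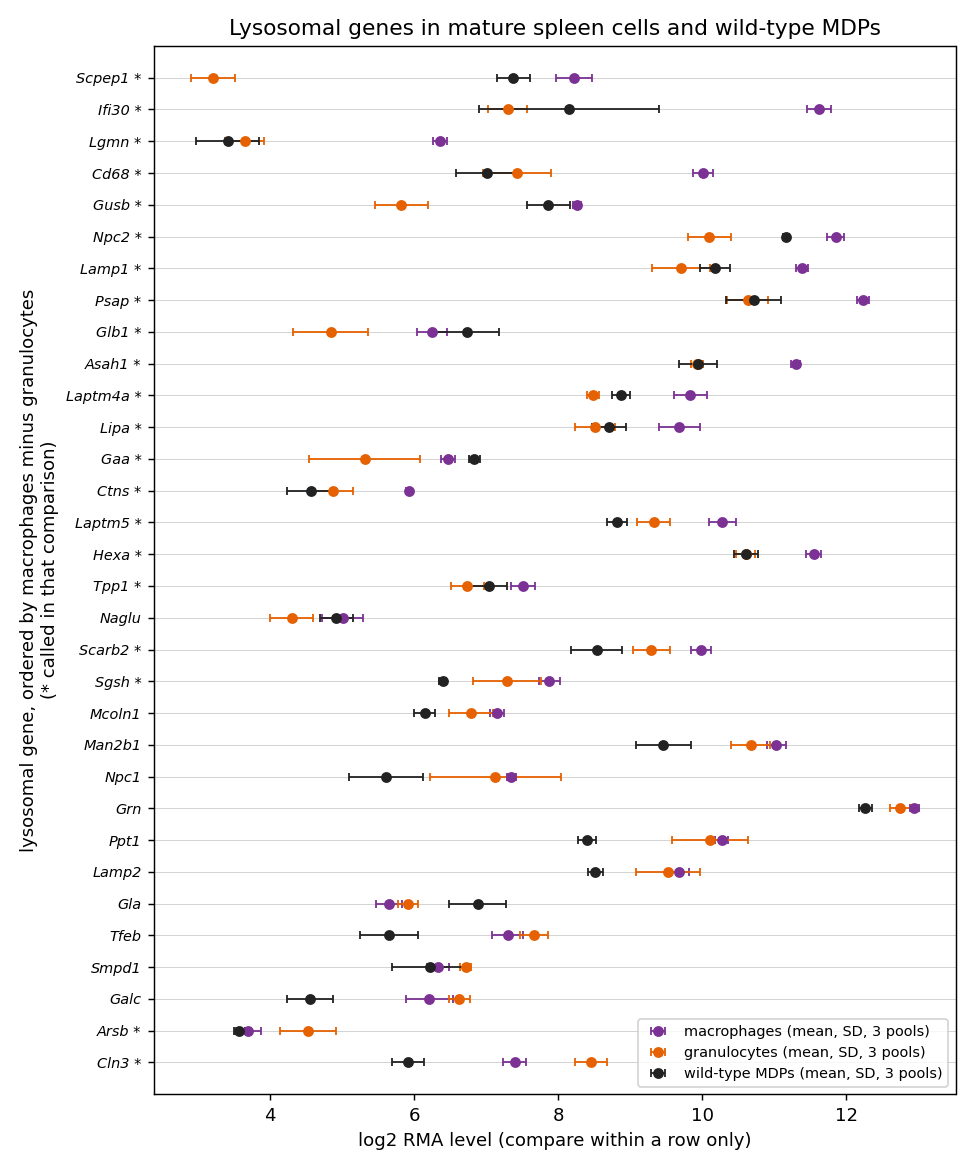
Mean log2 level of each lysosomal gene (rows, ordered by macrophages minus granulocytes) in macrophages, granulocytes and wild-type MDPs; bars are SD over 3 pools, and an asterisk marks a gene called between macrophages and granulocytes. The macrophage mean lies at the right for most rows, and the granulocyte mean does for Cln3, Arsb, Galc, Smpd1 and Tfeb.

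The mature populations were next set against wild-type MDPs, to ask how lysosomal genes differ between progenitor and mature cells. In macrophages 23 of 32 rose and 1 fell, where 23.6% of all genes were called (11.4% higher, 12.2% lower). In granulocytes 11 rose and 6 fell, where 45.2% of all genes were called (22% higher, 23.1% lower). The median difference was 1.19 in macrophages (all genes -0.00) and 0.27 in granulocytes (all genes 0.10). Both comparisons use the same wild-type MDP pools, so their values are given side by side only. In macrophages all 6 membrane proteins and all 4 genes of the channel and exporters rose, and in granulocytes 2 of each.

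By their calls, 10 genes were higher in both populations than in MDPs: Lamp2, Scarb2, Cln3, Npc1, Galc, Ppt1, Man2b1, Sgsh, Tfeb and Grn. Another 12 rose in macrophages with no call in granulocytes: Lamp1, Cd68, Laptm4a, Laptm5, Mcoln1, Ctns, Psap, Asah1, Hexa, Lipa, Lgmn and Ifi30. Of these 12, Mcoln1 was not called between macrophages and granulocytes in the comparison above, and the other 11 were. The granulocyte call of Scarb2 was lost without wild-type pool 1 (limma adjusted p = 0.0596). Npc2 rose in macrophages and fell in granulocytes. Gla fell in both. Gusb, Glb1, Gaa and Scpep1 fell in granulocytes and were not called in macrophages, and Arsb rose in granulocytes alone by these calls. Scpep1 was 0.84 above MDPs in macrophages. It was called higher there in some settings, such as the mean of its probe sets (1.20, limma adjusted p = 0.00187). In a fit of the arrays compared alone, Scpep1 was called higher in macrophages (limma adjusted p = 0.00904) and Gaa lower (-0.36, adjusted p = 0.0426). Smpd1, Naglu and Tpp1 were called in neither. Some granulocyte calls depended on the setting. With the mean of probe sets Tpp1 was called lower (-0.64, limma adjusted p = 0.0077) and Laptm5 higher (0.59, limma adjusted p = 0.00479). Smpd1 was called higher without wild-type pool 3 (0.78, limma adjusted p = 0.0245). Lamp1, Mcoln1 and Ifi30 also gained a granulocyte call in at least 1 setting.

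Ppt1, which removes fatty acids from proteins, was at 8.33, 8.34 and 8.54 in wild-type MDPs, 10.38, 10.24 and 10.20 in macrophages and 10.40, 10.42 and 9.50 in granulocytes. Every mature pool was above every MDP pool, by 3.65-fold in macrophages and 3.26-fold in granulocytes (limma adjusted p = 5.17e-05 and 5e-05). Galc, the gene of galactosylceramidase, was at 4.57, 4.23 and 4.86 in MDPs, 6.26, 6.51 and 5.87 in macrophages and 6.80, 6.51 and 6.57 in granulocytes. Its mature pools were again above all MDP pools. Its differences were 1.66 and 2.08 (limma adjusted p = 2.36e-05 and 1.03e-06). They rest on the probe set used, since another Galc probe set of similar mean level (5.00 against 5.09) differed by only 0.06 and 0.49. The alpha-mannosidase gene Man2b1 was at 9.13, 9.38 and 9.88 in MDPs, 10.88, 11.14 and 11.07 in macrophages and 10.39, 10.93 and 10.70 in granulocytes. It was 2.97-fold and 2.32-fold higher in the mature cells (limma adjusted p = 4.19e-05 and 0.00019).

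The cholesterol exporter gene Npc1 was at 6.05, 5.05 and 5.73 in MDPs, 7.35, 7.41 and 7.28 in macrophages and 6.30, 6.99 and 8.10 in granulocytes, which spread widely among themselves. Its differences from MDPs were 1.74 (limma adjusted p = 0.00768) and 1.52 (adjusted p = 0.0104). Without granulocyte pool 3 the granulocyte difference was 1.03 and was not called (limma adjusted p = 0.0568), nor was it in the blocked fit of the arrays compared (0.051). Cln3 was at 5.94, 5.68 and 6.13 in MDPs, so its pools lay in the order MDPs, macrophages, granulocytes without overlap. It rose 2.79-fold in macrophages and 5.82-fold in granulocytes (limma adjusted p = 0.00247 and 1.06e-05). Tfeb itself was at 5.33, 5.51 and 6.11 in MDPs, 7.18, 7.17 and 7.55 in macrophages and 7.44, 7.81 and 7.75 in granulocytes. It was 3.14-fold and 4.04-fold higher in the mature cells (limma adjusted p = 0.000135 and 8.77e-06).

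The largest rises in macrophages were in Ifi30, Cd68 and Lgmn. Ifi30 was at 7.73, 7.16 and 9.56 in wild-type MDPs, with pool 3 well above the other two, and its rise in macrophages was 11.1-fold (limma adjusted p = 4.02e-05). Cd68 was at 7.12, 6.53 and 7.39 in MDPs and rose 7.99-fold (limma adjusted p = 1.16e-05). Lgmn was at 3.05, 3.28 and 3.90 in MDPs, under the median signal like its granulocyte levels, and differed by 2.95 in macrophages (limma adjusted p = 1.85e-05). The other rises in macrophages ranged from 0.68 for Grn to 1.87 for Ppt1. Of the membrane proteins, Scarb2, Laptm5 and Lamp1 rose by 1.45, 1.46 and 1.21. Psap, Asah1 and Sgsh rose by 1.52, 1.36 and 1.48. The call for Mcoln1, which encodes a calcium-releasing channel of the lysosome, was lost without any 1 of 11 arrays. This call was also lost with the mean of its probe sets (0.51, limma adjusted p = 0.159). With its probe set of largest variance the difference was 0.08 (limma adjusted p = 0.944).

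Among the genes that fell, Gla, the gene of alpha-galactosidase A, was at 6.62, 6.69 and 7.34 in MDPs, 5.78, 5.45 and 5.72 in macrophages and 5.80, 5.89 and 6.07 in granulocytes. All MDP pools were above all mature pools, by 2.35-fold and 1.95-fold (limma adjusted p = 0.00105 and 0.00361). Scpep1 was at 7.27, 7.22 and 7.64 in MDPs and differed by -4.17 in granulocytes (limma adjusted p = 7.4e-08). Gusb was at 7.94, 7.53 and 8.11 in MDPs, 4.11-fold above granulocytes (limma adjusted p = 5.45e-05). Glb1, Gaa and Npc2 were also lower in granulocytes than in MDPs. Glb1 was at 6.47, 6.47 and 7.25 in MDPs and 5.29, 4.28 and 4.95 in granulocytes, 3.71-fold lower (limma adjusted p = 4.84e-05). Gaa was at 6.93, 6.80 and 6.78 against 4.85, 4.89 and 6.20, 2.88-fold lower, with granulocyte pool 3 nearer to the MDPs than the other two (limma adjusted p = 0.00122). Npc2 was at 11.13, 11.17 and 11.21 in MDPs and 2.1-fold lower in granulocytes (limma adjusted p = 3.49e-05).

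Calls were also counted for genes with and without the CLEAR-type letters. Of the 10 genes with them, 6 rose and 1 fell from MDPs to macrophages, and of the 20 with an entry and without them 15 rose and 0 fell, where 11.4% of all genes rose and 12.2% fell. In granulocytes 2 of the 10 rose and 3 fell, and of the 20 others 8 rose and 3 fell, where 22% of all genes rose and 23.1% fell. Whether the 2 sets differ was not tested. Without wild-type pool 3, 22 genes rose and 1 fell in macrophages, and 12 rose and 6 fell in granulocytes.

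The next comparison asked whether reporter MDPs without VENUS differ from those with it. Of the 32 lysosomal genes, 9 fell and 0 rose in VENUS-negative MDPs, and 23 were not called, where 5.87% of all genes were called (2.85% higher and 3.02% lower). The 9 were Scpep1, Psap, Ifi30, Cd68, Asah1, Laptm5, Scarb2, Grn and Hexa, which lie among the membrane proteins, lipid breakdown, the proteases and thiol reductase, and the regulator and growth factor. Of the 32 genes 26 had a difference below 0 and 6 above 0, with a median of -0.51 against -0.01 over all genes. None of the 4 genes of the channel and exporters and none of the 7 of glycan breakdown was called. Of the 10 genes with the CLEAR-type letters 1 fell (Ifi30), and of the 20 with an entry and without them 7 fell.

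Scpep1 was at 7.56, 8.21 and 7.43 in VENUS-positive and 4.04 and 3.95 in VENUS-negative MDPs, and fell by 3.74 log2 units (SE 0.35, limma adjusted p = 9.99e-06). Both VENUS-negative pools were under the median signal. Psap, whose product is cut into the saposins that present sphingolipids to their hydrolases, was at 10.84, 11.28 and 10.32 against 8.06 and 7.84, 7.25-fold lower (SE 0.29 log2 units, limma adjusted p = 2e-05). Asah1, whose product splits ceramide, was at 10.11, 9.99 and 9.94 against 8.04 and 8.94, 2.88-fold lower (limma adjusted p = 0.000332). The 3 VENUS-positive pools of Asah1 lay close together, while the VENUS-negative pools were further from each other, with pool 1 the lower. Hexa, whose product removes hexosamines from gangliosides, was at 10.71, 10.47 and 11.12 against 10.07 and 10.00, 1.66-fold lower (limma adjusted p = 0.046). Its call was lost without any 1 of 14 of the 17 arrays.

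Of the membrane proteins, Cd68 was at 6.42, 7.17 and 7.14 in VENUS-positive and 5.10 and 5.32 in VENUS-negative MDPs, 3.24-fold lower (limma adjusted p = 0.0126). Laptm5, which encodes a lysosomal protein of blood cells, was at 8.92, 8.76 and 9.52 against 8.07 and 7.28, 2.62-fold lower (limma adjusted p = 0.00262). Scarb2, which encodes a receptor that carries glucocerebrosidase to lysosomes, was at 8.76, 9.11 and 8.81 against 7.68 and 8.01, 2.07-fold lower (limma adjusted p = 0.0186). For all 3 genes both VENUS-negative pools were below all VENUS-positive pools. Lamp1, Lamp2 and Laptm4a differed by -0.73, -0.38 and 0.07 and were not called.

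Ifi30 was at 8.22, 8.28 and 8.53 in VENUS-positive and 6.80 and 6.09 in VENUS-negative MDPs, 3.73-fold lower (limma adjusted p = 0.0357). Its call was lost without any 1 of 8 arrays, although the pools did not overlap. Grn was at 12.70, 12.32 and 12.51 against 11.48 and 11.79, 1.83-fold lower (limma adjusted p = 0.00207). The lowest VENUS-positive pool was above both VENUS-negative pools. The called genes all separated in this way, which is not separate support, since they were picked by their calls. Without a call, Lamp1, Npc2, Galc, Gla, Glb1, Man2b1 and Tfeb were also lower without overlap. Among genes without a call, Glb1 was at 6.69, 7.03 and 6.60 against 5.41 and 6.13 (limma adjusted p = 0.0732). Tfeb differed by -0.81 and Tpp1, the largest difference above 0, by 0.68. Tpp1 was called higher with the mean of its probe sets (0.84, limma adjusted p = 0.0173). It was also called higher without VENUS-positive pool 2 (0.97, limma adjusted p = 0.0222). The 95% intervals of Lipa (-0.63 to 0.39) and Laptm4a (-0.47 to 0.61) lay within 1 log2 unit either way.

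Without VENUS-negative pool 1, 5 genes were called, and Cd68 and Scarb2 had limma adjusted p = 0.104 and 0.176. Without VENUS-negative pool 2, Cd68 lost its call and Laptm5 had a limma adjusted p of 0.0521, and Scarb2 lost its call without VENUS-positive pool 2. The calls of Scpep1, Psap, Asah1 and Grn held without each array in turn. A fit of the VENUS arrays alone called 4 genes, Scpep1, Psap, Cd68 and Ifi30. Calls over all genes fell from 1003 to 459 in that fit. In that fit Asah1 and Grn lost their calls (limma adjusted p = 0.0649 and 0.111), as did Laptm5, Scarb2 and Hexa. Erythroid, megakaryocyte, mast cell and basophil markers and low Csf1r moved with the VENUS-negative pools, and their part in these differences was not tested.

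**Figure D4:**
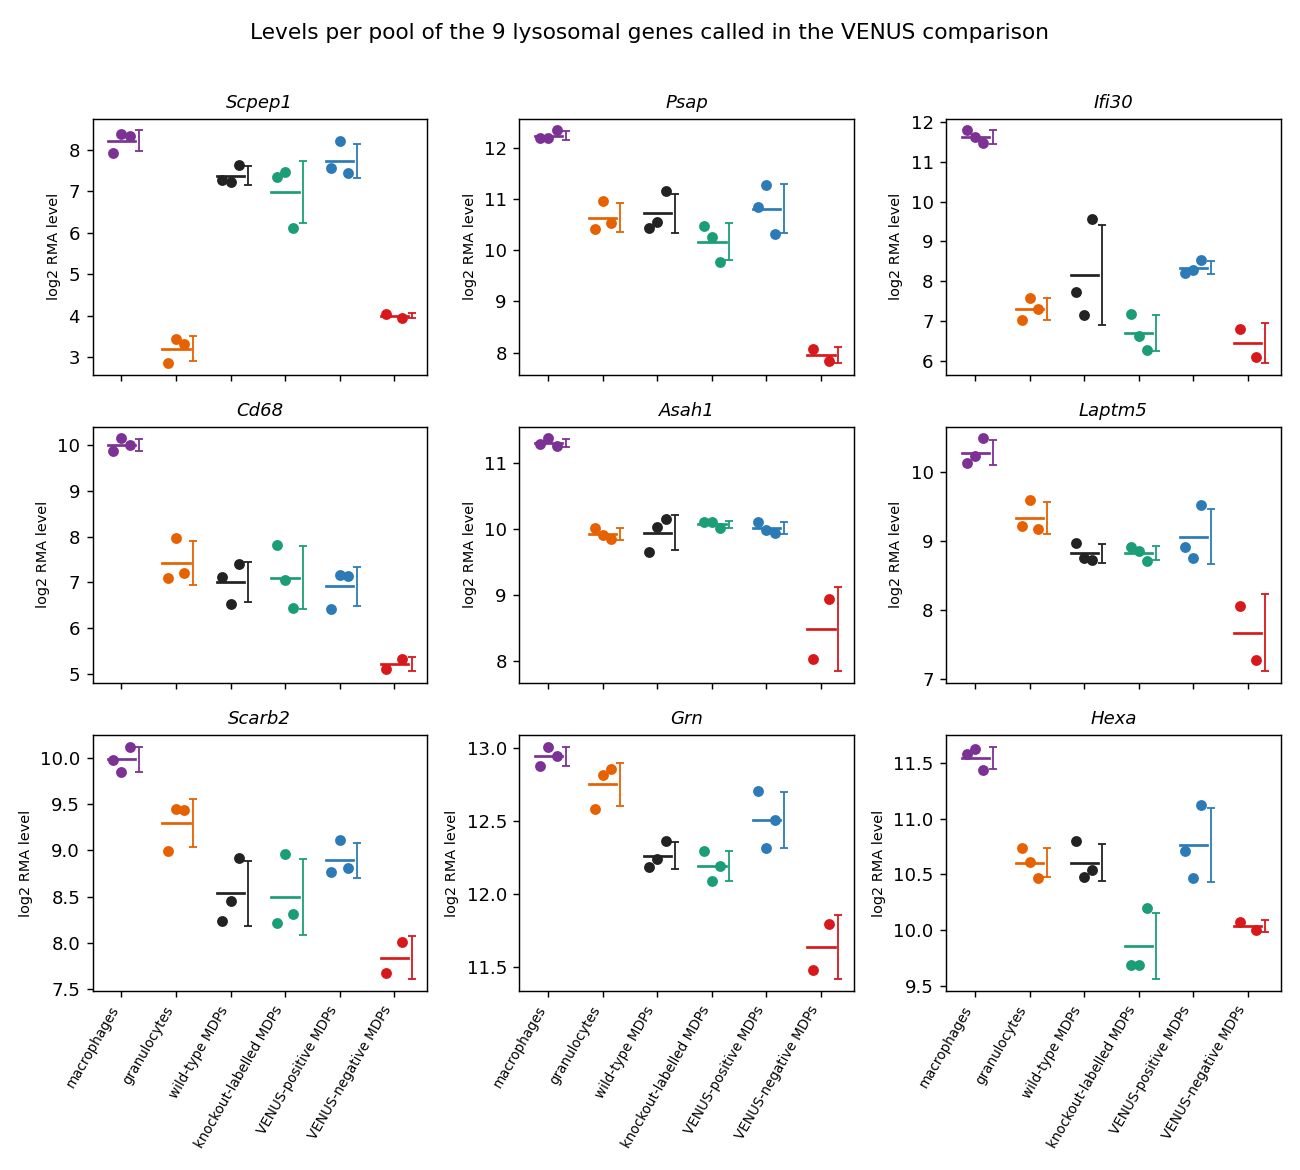
Log2 level per pool of the 9 lysosomal genes called between VENUS-negative and VENUS-positive MDPs, in all 6 groups; horizontal lines are group means and bars are SD, and each panel has its own axis, which does not start at 0. Both VENUS-negative pools lie below all VENUS-positive pools in every panel, which is not separate support, since the genes were picked by their calls.

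The comparison of knockout-labelled with wild-type MDPs asked whether these genes differ with the knockout label, under which the Irf8 level itself was not lower. No lysosomal gene was called: 0 of 32, where 0.907% of all genes were called (0.456% higher and 0.45% lower), and 3 genes had an unadjusted p under 0.05 in limma, where 8.67% of all genes did. The median difference was -0.07 over the 32 genes and 0.01 over all genes. For 24 of the 32 genes the 95% interval of the difference lay within 1 log2 unit either way. The intervals of Mcoln1, Npc1, Psap, Hexa, Naglu, Gaa, Scpep1 and Ifi30 reached further.

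Hexa had the smallest adjusted p of the 32. It was at 10.80, 10.48 and 10.54 in wild-type and 9.68, 9.68 and 10.20 in knockout-labelled MDPs, a difference of -0.75 (SE 0.18, limma adjusted p = 0.0754). All 3 knockout-labelled pools were below all wild-type pools. It was called without knockout-labelled pool 3 (limma adjusted p = 0.0282), without VENUS-positive pool 3 (0.0425) and with array weights (0.0266). Gaa and Sgsh had no overlap either, and went the other way. Their knockout-labelled pools were above all wild-type pools, by differences of 0.34 and 0.36 without a call. The share of all genes without overlap was not counted. Ifi30 was at 7.73, 7.16 and 9.56 against 7.18, 6.63 and 6.28, a difference of -1.46 (limma adjusted p = 0.207), and wild-type pools 1 and 3 were above the knockout-labelled range and pool 2 was within it. Without wild-type pool 3 the difference of Ifi30 was -0.75 (limma adjusted p = 0.402). Psap was at 10.43, 10.56 and 11.15 against 10.47, 10.26 and 9.77, with overlap, and differed by -0.55 (limma adjusted p = 0.572).

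Granulocyte markers averaged 6.28 to 6.95 in knockout-labelled pools and, in wild-type pools, 4.99, 4.75 and 8.41. Erythroid and megakaryocyte markers averaged 4.19 to 4.46 in knockout-labelled pools and 5.55, 6.16 and 8.07 in wild-type pools, without overlap. Wild-type pool 3 was also high for mast cell and basophil (6.95 against 4.43 and 4.51), macrophage (5.13 against 4.12 and 4.02) and dendritic cell markers (5.77 against at most 4.80). The part of these markers in the values was not tested. In wild-type pool 3, 27 of the 32 lysosomal genes were above the wild-type mean, against 15 in pool 1 and 4 in pool 2. The mean includes all 3 pools, and the share over all genes was not counted. Without wild-type pool 3, 0 genes were called and the median difference was 0.05.

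The 2 MDP comparisons were then compared with each other, since a call in only one of them does not show a difference. The VENUS difference minus the knockout difference was called for 5 of 32 genes, all below 0, where 3.6% of all genes were called (1.86% below 0). Scpep1 differed between the comparisons by -3.35 (SE 0.46, limma adjusted p = 0.000622) and Psap by -2.31 (SE 0.38, adjusted p = 0.00267). Asah1 differed by -1.65 (limma adjusted p = 0.00338), Laptm5 by -1.40 (adjusted p = 0.0292) and Grn by -0.80 (adjusted p = 0.0404). The other 4 genes called in the VENUS comparison, Ifi30, Cd68, Scarb2 and Hexa, were not called here, and the differences of Cd68 and Hexa were -1.79 (limma adjusted p = 0.0753) and 0.02 (0.993). The count was 3 without wild-type pool 2, knockout-labelled pool 1, knockout-labelled pool 2 or VENUS-positive pool 3, each left out alone. The call of Laptm5 was lost without any 1 of 6 arrays and that of Grn without any 1 of 11.

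**Figure D5:**
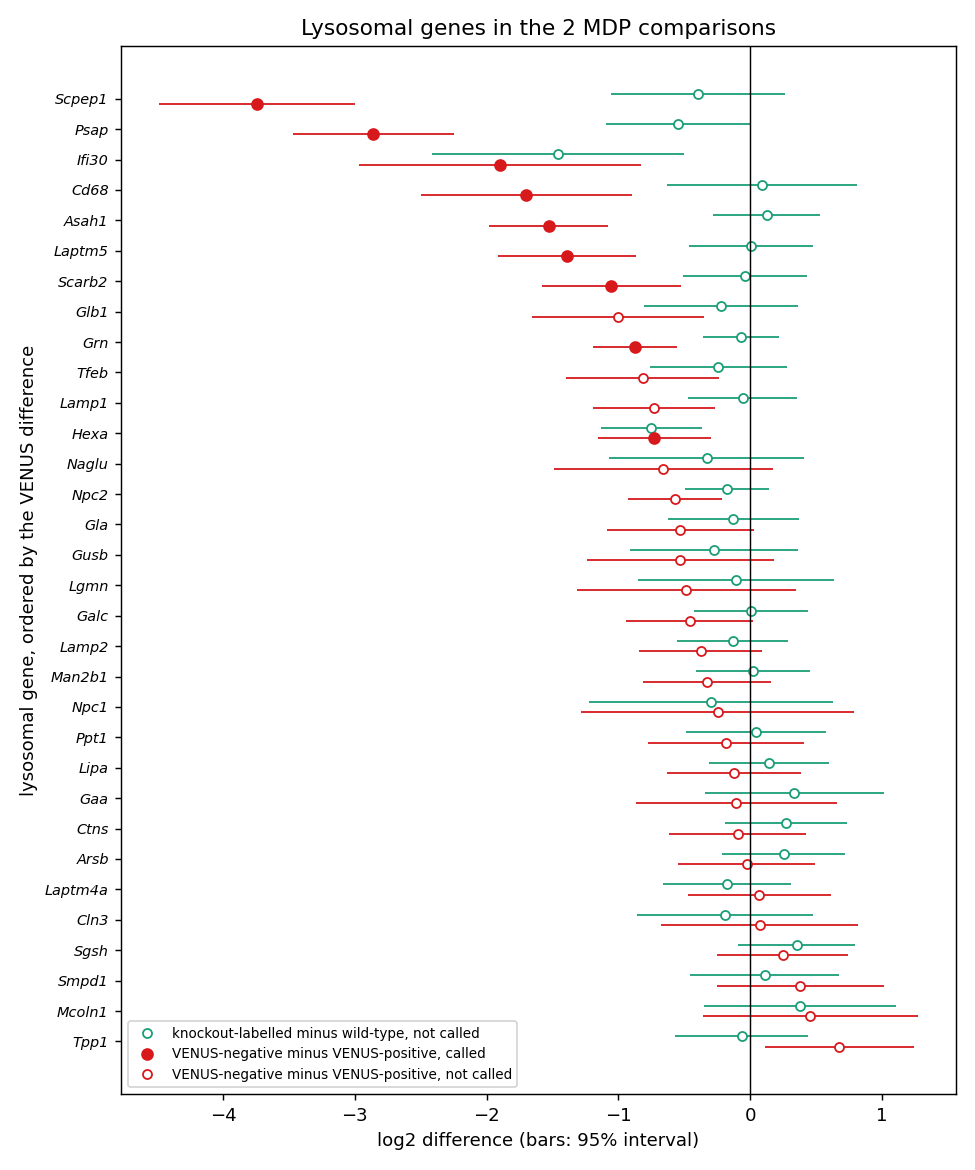
Log2 difference of each lysosomal gene between knockout-labelled and wild-type MDPs (green) and between VENUS-negative and VENUS-positive MDPs (red), with 95% intervals of limma; filled points are called. The 9 filled points are all red and below 0, and no green point is filled.

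VENUS-positive MDPs were set against wild-type MDPs to ask whether the reporter pools match the wild type. No lysosomal gene was called (0 of 32, where 0% of all genes were called), and 1 gene had an unadjusted p under 0.05 in limma, where 6.01% of all genes did. That gene was Lipa, with a difference of -0.61. For 26 of the 32 genes the 95% interval lay within 1 log2 unit either way.

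Other lysosomal genes were taken from lists of related function. Over all genes, 5.87% were called in the VENUS comparison and 0.907% in the knockout comparison. Against wild-type MDPs, 11.4% of all genes rose and 12.2% fell in macrophages, and 22% rose and 23.1% fell in granulocytes. Of 16 other hydrolases, 3 fell and 1 rose in VENUS-negative MDPs: the iduronate sulfatase Ids (-1.45), the protective protein Ctsa (-1.04) and the mannosidase Manba (-0.89) were lower, and the acid phosphatase Acp2 (0.80) was higher. In macrophages against wild-type MDPs 7 of 16 rose, with Ids (2.88), Ctsa (2.32), Acp5 (2.25) and Fuca1 (1.65) the largest. None of the 14 subunits of the V-ATPase, the pump that acidifies lysosomes, was called in either MDP comparison. In mature cells 7 of 14 rose in macrophages and 9 of 14 in granulocytes, and 0 fell in either. The subunit Atp6v0a1 was 2.89 above MDPs in granulocytes, and lower in macrophages than in granulocytes by a difference of -2.53.

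Among 7 genes for sorting enzymes to lysosomes, Gnptab, which makes the mannose 6-phosphate tag, and the receptor gene Sort1 fell by 1.37 and 0.83 in VENUS-negative MDPs. In granulocytes 4 of the 7 fell against wild-type MDPs: Gnptab by 3.02, M6pr by 1.49, Nagpa by 1.17 and Sumf1 by 1.09. Of 14 genes for MiT transcription factors, the Rag GTPases and the Ragulator complex, Mitf alone was called in VENUS-negative MDPs, with a difference of -1.64. Tfe3, a relative of Tfeb, was 2.01 above MDPs in macrophages and 2.02 in granulocytes, while Tfec fell by 1.87 and 3.72. Of 16 other membrane proteins, the nucleoside transporter Slc29a3 and the peptide transporter Slc15a4 fell in VENUS-negative MDPs, Slc29a3 by 1.89 and Slc15a4 from a mean of 6.66 to 5.66. The metal transporter Slc11a1 was 4.67 above MDPs in macrophages and 5.11 in granulocytes. The median VENUS difference was 0.05 for the hydrolases, -0.16 for the V-ATPase, -0.62 for sorting, -0.05 for the MiT, Rag and Ragulator list and -0.23 for the other membrane proteins. No gene of these 5 lists was called between knockout-labelled and wild-type MDPs. Of 13 cathepsins 3 fell and 1 rose there, and 4 fell and 0 rose in VENUS-negative MDPs.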

How the data were processed

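The deposited values are on the log2 scale, 1 per probe set and array. Per the submitters' processing notes, they came from RMA in Affymetrix Expression Console. The sources used here give no version and do not say which arrays were normalized as a set. RMA forces the arrays to a common distribution, so a shift of most genes in 1 group would be hidden. Of 45037 probe sets, 28898 had 1 gene symbol in the platform annotation, 551 had several and 15588 had none. The 32 genes had 55 probe sets, and 17 genes had more than 1. No filter on low signal was applied.

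Groups were compared two-sided by lmFit and eBayes of limma 3.58.1 (R 4.3.3) in 1 fit over 17 arrays and 6 groups, with 11 residual degrees of freedom, no covariate and Benjamini-Hochberg adjustment over 17097 genes. The step was tested on simulated data. The pools of a group are taken as separate samples, and precision is limited by how many arrays there are. The genes and lists were chosen with earlier results of these data known. Values per array are given for called genes. Where a comparison called more than 12, they are given for the 6 largest differences each way, and up to 4 called genes are named from a related list. Genes named outside this rule were chosen after their values were seen. They were Hexa, Ifi30, Psap, Gaa and Sgsh in the knockout comparison, Glb1 in the VENUS comparison, and Lipa and Laptm4a for their intervals. The uncalled genes without overlap in the VENUS comparison were named in the same way.

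Alternatives were another quantile normalization, median centring, the mean of a gene's probe sets, the probe set with the largest variance, a filter on low signal, a trended and robust spread, array weights, the replicate number as a block, a fit of the arrays compared alone, and leaving out each array. Promoter bases are from RefSeq, and the array's own genome build was not used here.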

Additional observations from a re-analysis of the deposited data

Results flagged for a closer look

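For 5 genes the VENUS-negative minus VENUS-positive difference and the knockout-labelled minus wild-type difference were unequal in limma's test of the difference between them. The first minus the second was -3.35 log2 units for Scpep1, -2.31 for Psap, -1.65 for Asah1, -1.40 for Laptm5 and -0.80 for Grn. In each of these genes the VENUS-negative pools lay below the VENUS-positive pools, and the knockout-labelled pools overlapped with the wild-type pools. The genes were picked by a test on these same pools, so this pattern is not separate support. Erythroid, megakaryocyte, mast cell and basophil markers were high in the VENUS-negative pools and not in the knockout-labelled pools, and their part was not tested.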

How the results depend on the processing

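The number of lysosomal genes called stayed within 1.5 times in most settings. With array weights 1 gene was called between knockout-labelled and wild-type MDPs (Hexa, in place of 0). In the VENUS comparison a fit of the arrays compared alone called 4 genes, in place of 9. The difference between the MDP comparisons had 3 calls in place of 5 in a fit of its own arrays. Pools that share a number were little correlated across groups (median 0.0221, and 2 of 40 over 0.1). Pairs with other numbers had a median of -0.0189, and 4 of 80 were over 0.1. Between VENUS-positive and VENUS-negative pools the same-number values were only -0.0018 and 0.0907, too few to settle whether these pools were paired. With the replicate number as a block over all arrays the VENUS comparison had 7 calls and the difference between the MDP comparisons 3. With the replicate block and only the arrays compared they had 2 and 3. Calls over all genes also fell in these settings. For VENUS they went from 1003 to 459 with the arrays compared alone, and to 98 with the block added. For the difference between the MDP comparisons they went from 615 to 430 and 365. Ppt1 was the 1 value that reversed: with its probe set of largest variance it was lower in macrophages than in granulocytes, by a difference of -1.42 (limma adjusted p = 0.0013), against 0.16 without a call.

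Leaving out each array in turn gave 0 to 1 calls for the knockout comparison, 5 to 11 for VENUS, 17 to 21 for macrophages against granulocytes, 23 to 25 for macrophages and 16 to 18 for granulocytes against wild-type MDPs, 0 to 0 for VENUS-positive against wild-type MDPs, and 3 to 5 for the difference between the MDP comparisons. Dim genes such as Lgmn, Arsb and, in granulocytes, Scpep1 lie near background, which limits the precision of their differences.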

Other observations

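Several genes had probe sets that differed in size of change. The other probe sets of called genes had the same sign as the one used in 5 of 5 cases for VENUS, 12 of 12 for macrophages against granulocytes, 17 of 19 for macrophages and 13 of 15 for granulocytes against wild-type MDPs. Those of opposite sign were of Galc (-0.07) and Gla (0.01) in macrophages and of Scarb2 (-0.18) and Gla (0.26) in granulocytes. Some of the same sign differed little. The dimmer probe set of Sgsh differed from wild-type MDPs by 0.10 in macrophages and 0.08 in granulocytes. A dimmer probe set of Grn differed by -1.70 in the VENUS comparison, against -0.87 for the brighter one used. The probe sets of Npc2 differed by -0.57 to -2.41 there, and those of Gusb by -0.53 and -1.46. Lamp2 had -0.38 with the probe set used and -1.12 and -1.05 with the other two. With the probe set of largest variance, the VENUS comparison called Npc2 (limma adjusted p = 0.00363) and Gusb (adjusted p = 0.0125), which were not called with the probe set used. With the mean of a gene's probe sets, that comparison called 11 genes lower and 1 higher, Tpp1.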
